A study of Mus musculus with 24 samples.

Results

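The genes described here build the hair shaft and the inner root sheath of the mouse hair follicle. They were taken by name: every gene symbol that begins with Krtap and a digit, and the keratins Krt25 to Krt28, Krt31, Krt32, Krt33a, Krt33b, Krt34 to Krt36, Krt71 to Krt74 and Krt81 to Krt86, with names that end in -ps left out. Of 52976 gene symbols in the count files, 70 met this rule: 8 inner root sheath keratins, 12 hair shaft keratins and 50 keratin-associated proteins. Krt85 was not analysed here. The RNA came from wound tissue of diabetic mice, in 6 groups of 3 libraries: wounds given the peptide hydrogel Fmoc-KYF-AgNCs-3S1C-Hyd2 at days 1, 7 and 14, and diabetic control wounds at the same days. The titles of the hydrogel libraries carry the word TEOA, which the labels do not explain, and those of the controls Dia. The gel carries silver nanoclusters and a hydrogenase, which makes hydrogen gas, and was made for light-driven treatment of diabetic wounds. Diabetes is shared by all 6 groups, and the labels give no strain, sex, age or way in which it was induced, nor whether replicates came from separate animals. All p-values rest on how far the libraries of a group differ, and that spread may be technical. Another 6 libraries, from a macrophage line, were not used here.

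A hair grows from matrix cells at the base of the follicle, which differentiate upward into the shaft and into the inner root sheath, the sleeve that moulds the shaft and is later shed. Keratins form filaments from a type I and a type II chain, and the sheath and the shaft each use their own pairs. In the shaft, Krt35 is switched on early, just above the matrix, and the cortex keratins and then the keratin-associated proteins follow higher up, where these small proteins, rich in cysteine or in glycine and tyrosine, pack around and cross-link the filaments. The order in the shaft is best known from human and sheep follicles. These genes are therefore read as signs of follicles that are growing a hair.

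Of the 70 genes, 57 had a promoter in the RefSeq table (GRCm38.p6), given as 250 bases before to 50 bases after the gene's start. The letters TATAAA, the core of a TATA box, stood on either strand in 46 of these 57 promoters (80.7%) and in 13.6% of all 32851 promoters of that length. Read on the gene's own strand and only within 45 to 15 bases before the start, they stood in 33 of 57 (57.9%), against 2.14% of all promoters. The share in that window was 57.1% among keratins and 58.1% among keratin-associated proteins. CCAAT was about as frequent on either strand as in all promoters, at 40.4% against 37.4%, and CTTTGA, the core letters of a LEF and TCF site, stood in 33.3% against 16%. Overlaps between matches of different motifs were not removed, and a match describes letters only. The 100 bases before the start are shown for the member with the highest level per length in each class that the table holds. TATAAA on the gene's strand is in capitals.
Krt25, sheath type I, chr11:99322952-99323051, minus strand: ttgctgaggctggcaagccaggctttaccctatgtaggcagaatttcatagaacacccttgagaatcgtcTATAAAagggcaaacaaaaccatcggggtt
Krt71, sheath type II, chr15:101743098-101743197, minus strand: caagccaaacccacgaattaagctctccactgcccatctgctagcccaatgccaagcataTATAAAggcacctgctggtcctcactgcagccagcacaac
Krt31, shaft type I, chr11:100050552-100050651, minus strand: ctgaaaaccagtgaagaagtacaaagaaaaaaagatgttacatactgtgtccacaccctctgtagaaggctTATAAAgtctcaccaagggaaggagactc
Krt82, shaft type II, chr15:101550660-101550759, minus strand: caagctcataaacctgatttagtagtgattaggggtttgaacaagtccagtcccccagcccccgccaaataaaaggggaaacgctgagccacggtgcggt
Krtap8-1, glycine-tyrosine-rich, chr16:89487953-89488052, minus strand: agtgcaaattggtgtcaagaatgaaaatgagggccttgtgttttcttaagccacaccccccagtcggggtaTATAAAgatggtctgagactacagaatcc
Krtap13-1, another keratin-associated protein, chr16:88728762-88728861, plus strand: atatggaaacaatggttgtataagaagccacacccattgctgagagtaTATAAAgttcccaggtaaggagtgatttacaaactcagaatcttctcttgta
Krt82 has no TATAAA in these 100 bases. The other 5 have 1 each, which begins 30 bases before the start in Krt25, 29 in Krt31 and Krtap8-1, 40 in Krt71 and 52 in Krtap13-1. That of Krtap13-1 thus lies outside the window of 45 to 15 bases. Of 2 shaft type II promoters, 0 had TATAAA in that window. Krt35, Krt83 and Krtap7-1, the highest members of their classes, are among the 13 without an entry.

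The values are read pairs counted per gene. Levels are given as CPM, the counts of a gene relative to the library's total (on the usual CPM scale), with totals scaled by the trimmed mean of M-values (TMM), or as RPKM, which divides CPM by exon length in kilobases, where genes are compared with each other. Total counts ran from 12.4 M to 27.1 M per library. Spread between replicates was uneven: the median chi-square per gene between 2 libraries of a group was 0.646 to 0.816 in control wounds at day 7, where sampling noise alone gives 0.455, and 11.1 to 47.5 in control wounds at day 14. Pairs that mapped to several places had not been counted, so near-identical members can lose reads: 33 of the 70 genes share at least 1 stretch of 100 bases with another gene's transcript, and 17 share over 10% of their stretches, among them Krt81 and Krt86 (25% and 24.6%), Krt34 (17.5%), Krt31 (14%), Krtap3-3 (36.7%) and Krtap3-2 (25.1%). Levels of those genes are uncertain to that extent. In whole tissue, fewer cells of a type and less RNA per cell cannot be told apart.

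Hair genes were nearly silent at days 1 and 7 in both arms and were high at day 14, above all in hydrogel wounds. Summed over the 70 genes, hydrogel libraries at day 14 held 3082, 4857 and 6121 CPM in replicates 1 to 3, and control libraries held 9.225, 403.8 and 946.2 CPM. The 2 arms did not overlap, and 1 control library stood far below the other 2. In the other 4 groups no library passed 17.2 CPM. Hair genes made up 0.391% to 0.8% of all counts in hydrogel libraries at day 14 and at most 0.118% in control libraries. A count was seen for 53, 67 and 68 of the 70 genes in the hydrogel libraries at day 14, against 11, 29 and 37 in the control libraries. Only Krtap5-1 and Krtap20-2 had no count in any of the 18 libraries, which at a floor of 3 counts does not show that they are off.

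**Figure D1:**
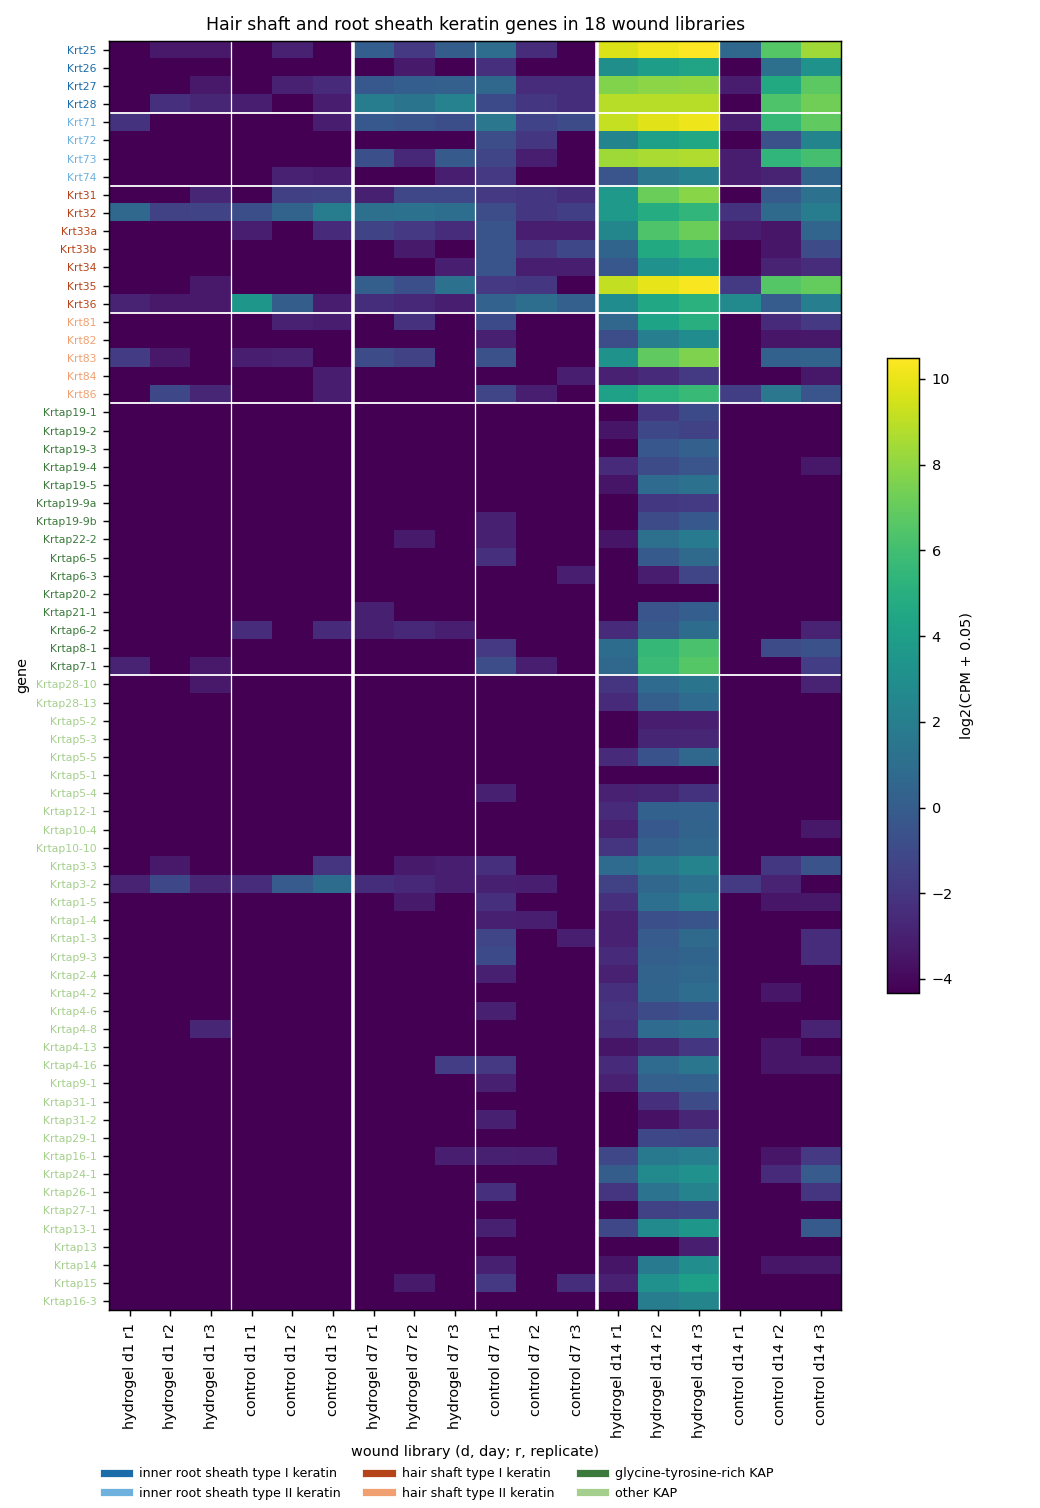
Level of each of the 70 genes (rows, coloured by class) in each of the 18 wound libraries (columns), as log2(CPM + 0.05), where the darkest colour is a count of 0. Signal appears across all classes in the 3 hydrogel libraries at day 14 (53, 67 and 68 genes with a count), while control replicates 2 and 3 at day 14 show mainly sheath keratins and Krt35, and control replicate 1 mainly Krt36 (111 of 159 counts).

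Set against control at day 14, 15 of the 25 genes that passed the filter on low counts rose in hydrogel wounds and 0 fell (edgeR quasi-likelihood test over all 18 libraries, Benjamini-Hochberg adjusted p below 0.05). Of all 17592 genes tested, 5.83% rose at that day. Of the 25, 16 reached the filter only through the hydrogel libraries of day 14, so that these lie high there was fixed in part by how they entered, and the count is a description that nothing rests on. Of the 9 that pass the filter without those libraries (Krt25, Krt27, Krt28, Krt32, Krt35, Krt36, Krt71, Krt73 and Krt83), 4 rose: Krt32, Krt35, Krt71 and Krt83. The other 10 genes had positive estimates too and did not pass, and 24 of the 25 had an unadjusted p below 0.05. The remaining 45 genes, which are Krt84 and keratin-associated proteins, had too few counts to be tested, so the 25 are not all members. With only the 6 libraries of day 14 in the model, 0 of 24 genes passed in edgeR, and 15 had an unadjusted p below 0.05. The share of all genes that passed in that model is not given here. DESeq2 called 13 of the 25, all among the 15. Limma-voom with quality weights called 12, of which only 5 were among the 15, and 7 of its 12 were sheath keratins. Which classes passed thus differed between these tools.

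**Figure D2:**
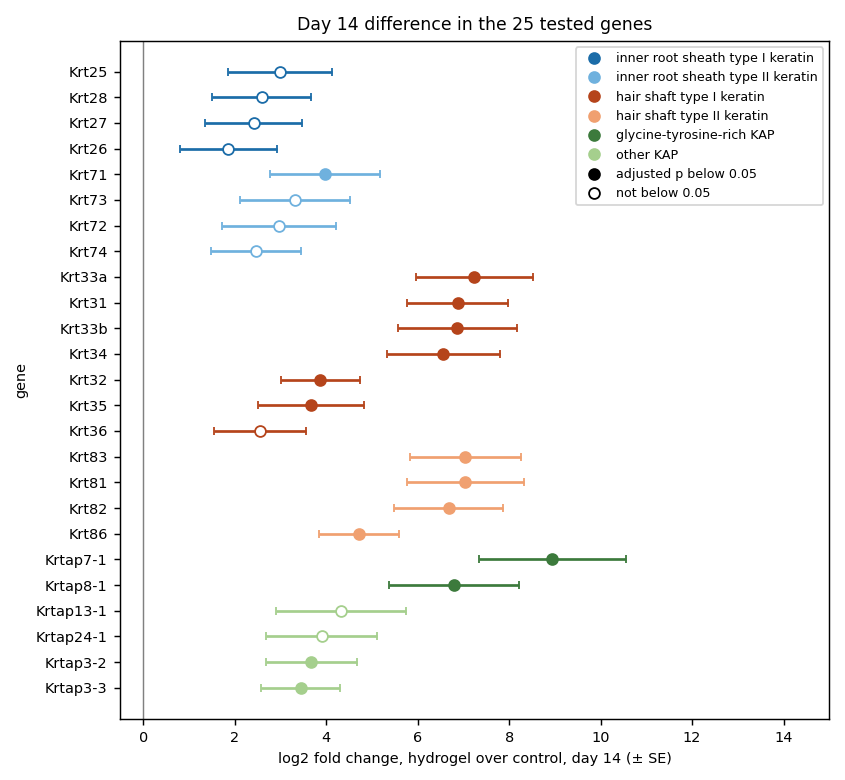
Log2 fold change of hydrogel over control wounds at day 14 (horizontal axis, bars are standard errors) for the 25 genes tested, grouped and coloured by class; filled points passed an adjusted p of 0.05. Krtap7-1 lies at 8.94 and Krt31 at 6.87, the sheath keratins lie between 1.86 and 3.98, and 15 points are filled.

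Without counting on a test, every hydrogel library at day 14 lay above every control library in 46 of the 70 genes, and the reverse held for 0. Of the 17592 genes tested, 23.8% had all hydrogel libraries above all controls at that day. The 46 also cover genes too low to be tested, so the 2 shares rest on unlike sets. Of the 25 members tested, 16 entered only through the hydrogel libraries of day 14, so their place was fixed in part. Leaving out 1 library changes the number of genes that pass the filter, since a group of 2 then sets its size, and the count of hair genes called with it. It was 10 without hydrogel day 14 replicate 3 and 11 without replicate 2. It was 21 without control day 14 replicate 1 and 17 without replicate 2, and 26 to 42 without any other single library, with 54 genes tested in each of these 16 cases. The genes added there had most of their counts in the hydrogel libraries of day 14, so their direction too was fixed in part.

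Among inner root sheath keratins, 1 of 8 rose at day 14 and 7 did not pass. Krt25, a type I keratin of all sheath layers (chromosome 11, 99315516 to 99322951, minus strand, GRCm38), stood at 824.2, 1175 and 1436 CPM in hydrogel wounds, against 1.567, 97 and 334.3 CPM in control wounds. All 3 hydrogel libraries were higher than all controls, and control replicate 1 had almost none. The log2 fold change was 2.99 ± 1.14 (SE; adjusted p = 0.0843). Krt71, the type II partner (chromosome 15, 101733949 to 101743109, minus strand), is the one that rose. It stood at 588.1, 900.7 and 1110 CPM in hydrogel wounds, against 0.05802, 46.29 and 117.9 CPM in control wounds, a log2 fold change of 3.98 ± 1.2 (adjusted p = 0.034, with 0.000354 to 0.172 over 28 alternatives, of which 21 kept the call). Krt71 is the gene mutated in curly-coated mice of the Caracul type.

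Krt28, another type I chain (chromosome 11, 99364872 to 99374903), was the steadiest in hydrogel wounds, at 468.7, 473 and 484.3 CPM, against 0, 84.06 and 152.5 CPM in control wounds. Krt73, a type II chain (chromosome 15, 101794811 to 101802346) found in the sheath cuticle in human follicles, stood at 338.9, 386.2 and 414.5 CPM against 0.05802, 43.3 and 70.49 CPM. Neither pair of groups overlaps, and neither gene passed (adjusted p = 0.111 for Krt28 and 0.0805 for Krt73). Krt26 and Krt74, the least abundant sheath keratins, overlapped between arms: Krt26 stood at 8.21, 15.32 and 19.78 CPM in hydrogel wounds and at 0, 2.141 and 9.756 CPM in control wounds. The sheath result depended on control replicate 3, the highest control. Without it 6 of 8 sheath keratins passed, and without control replicate 1, the lowest, 3 passed. Without control replicate 2, or without any 1 of the 3 hydrogel libraries of day 14, 0 passed. Limma-voom with quality weights called 7 of 8.

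Hair shaft keratins of type I rose at day 14 in 6 of 7 cases. Of the 7, only Krt32, Krt35 and Krt36 pass the filter without the hydrogel libraries of day 14. Krt35, the early shaft keratin (chromosome 11, 100092193 to 100096241, minus strand), was by far the most abundant, at 560.7, 991 and 1295 CPM in hydrogel wounds, against 0.2321, 95.67 and 129.3 CPM in control wounds. Its log2 fold change was 3.66 ± 1.16 and its adjusted p of 0.0473 lay at the threshold, with 0.000596 to 0.181 over 28 alternatives, of which 11 kept the call. Krt31, a keratin of the cortex (chromosome 11, 100046646 to 100050551, minus strand), differed more. It stood at 12.91, 141.6 and 228.6 CPM in hydrogel wounds, against 0, 0.8565 and 2.336 CPM in control wounds, a log2 fold change of 6.87 ± 1.1 (adjusted p = 0.00187). The lowest hydrogel library was above the highest control library by several fold, and it was itself far below the other hydrogel libraries.

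Krt33a, a neighbouring cortex keratin, stood at 5.605, 84.38 and 141.5 CPM in hydrogel wounds, against 0.05802, 0.04282 and 1.374 CPM in control wounds (log2 fold change 7.24 ± 1.28, adjusted p = 0.00358). Krt33b and Krt34 had log2 fold changes of 6.86 and 6.56. Krt32, a keratin of the shaft cuticle in human follicles, rose less, at 12.39, 29.17 and 43.19 CPM in hydrogel wounds against 0.1741, 1.67 and 3.893 CPM in control wounds (3.87 ± 0.87, adjusted p = 0.00895). Krt36 did not pass. It stood at 7.263, 23.36 and 35.84 CPM against 6.44, 0.9421 and 4.031 CPM, so its lowest hydrogel library was close to the control library with the least sheath keratin.

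All 4 tested type II shaft keratins rose. Of these, only Krt83 passes the filter without the hydrogel libraries of day 14. Krt83 (chromosome 15, 101485131 to 101491512, minus strand) stood at 9.473, 117.7 and 199.7 CPM in hydrogel wounds, against 0, 1.156 and 1.237 CPM in control wounds, a log2 fold change of 7.04 ± 1.22 (adjusted p = 0.0028). Krt81 stood at 1.46, 19.46 and 31.28 CPM against 0, 0.1285 and 0.229 CPM (7.04 ± 1.28, adjusted p = 0.00417). Krt86, which like Krt81 and Krt83 forms filaments in the cortex, stood at 17.68, 35.56 and 49.68 CPM against 0.2901, 2.869 and 0.6871 CPM (4.71 ± 0.88, adjusted p = 0.0047). Krt82, of the shaft cuticle in human follicles, had 13, 126 and 214 counts in hydrogel wounds and 0, 1 and 1 in control wounds. Over the group that is 128-fold higher (95% exact counting interval 35.1 to 1058), and its adjusted p was 0.00711. Krt84, a keratin of tongue papillae more than of hair, had only 13 counts in hydrogel wounds and 1 in control wounds and was not tested. These intervals, and the floor of 3 counts used below, cover counting error only.

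Among keratin-associated proteins, 6 of 50 were tested at day 14, 4 rose and 2 did not pass, where 5.83% of all genes rose. All 6 reached the filter only through the hydrogel libraries of day 14. That they lie high there was thus fixed in part by how they entered, and the count is a description only. The glycine-tyrosine-rich genes Krtap7-1 and Krtap8-1 led. Krtap7-1 (chromosome 16, 89507703 to 89508323, minus strand) stood at 1.5, 54.49 and 94.67 CPM in hydrogel wounds, against 0, 0 and 0.2748 CPM in control wounds, a log2 fold change of 8.94 ± 1.61 (adjusted p = 0.00526). Krtap8-1 (chromosome 16, 89487379 to 89487952, minus strand) stood at 1.855, 46.07 and 76.72 CPM against 0, 0.4711 and 0.5955 CPM (6.79 ± 1.42, adjusted p = 0.0135). Hydrogel replicate 1 lay much nearer the controls than the other hydrogel libraries in both genes. Of the high-sulphur genes on chromosome 11, Krtap3-3 rose by 3.44 ± 0.86 on the log2 scale and Krtap3-2 by 3.67 ± 0.99 (adjusted p = 0.0155 and 0.0219). These neighbours share sequence, so the split between them is uncertain. Krtap13-1 (4.32 ± 1.42) and Krtap24-1 (3.9 ± 1.21) did not pass, at adjusted p = 0.0668 and 0.0674. Krtap13-1 stood at 0.3947, 6.488 and 11.36 CPM in hydrogel wounds and at 0, 0 and 0.8703 CPM in control wounds, so hydrogel replicate 1 fell below control replicate 3.

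The 45 untested genes together held 84, 1630 and 2374 counts in hydrogel libraries at day 14, against 0, 6 and 27 in control libraries. Krtap15, on chromosome 16, had 2, 288 and 473 counts in hydrogel wounds and 0 in all 3 controls, at least 184-fold higher when the 3 controls together are set to the floor of 3 counts. Krtap16-3 had 0, 118 and 151 counts in hydrogel wounds and none in control wounds, at least 64.8-fold higher, and Krtap22-2 had 1, 70 and 97, at least 40.5-fold higher. Krtap14 had 1, 111 and 223 counts against 0, 1 and 1, a 121-fold ratio (33.3 to 1004). These values rest on hydrogel replicates 2 and 3, and replicate 1 was near 0 for each.

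By family, the cysteine-rich families 1, 2, 4 and 9 on chromosome 11 had 295, 88, 417 and 146 counts in hydrogel wounds at day 14, against 5, 0, 6 and 3 in control wounds. Families 10 and 12, which are known from the shaft cuticle in human follicles, had 146 and 75 counts against 1 and 0. Family 5, another cuticle family in human follicles, had 88 against 0. Among the glycine-tyrosine-rich families of chromosome 16, family 19 had 314 counts over 7 genes against 1, family 6 had 173 over 3 genes against 2, and family 21 had 52 against 0. Of the 50 keratin-associated protein genes, 27 had 0 counts in all 3 control libraries at day 14 and more than 3 in hydrogel wounds, which gives a lower bound only. In 2 of these, Krtap5-2 and Krtap31-2, that bound was 0.964, so no direction can be drawn from them. No family had more counts in control than in hydrogel wounds, and family 20, with 1 gene, had none in either.

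Per length, the order of levels in hydrogel wounds at day 14 was led by Krt25 at 596.1 ± 159.8 RPKM (SD, n = 3), Krt35 at 546 ± 212.3, Krt71 at 396.3 ± 120.2, Krt28 at 303.1 ± 5.17, Krt73 at 269 ± 27.1 and Krt27 at 151.7 ± 16.9. These SDs are between libraries and do not measure the order of genes within a library, which was not tested. In replicates 1 to 3 Krt25 stood at 429, 611.8 and 747.4 RPKM and Krt35 at 322.6, 570.2 and 745.1. Krt71 was below both in each, at 269, 412 and 507.8 RPKM. It lay below Krt28 in replicate 1 (298.9 RPKM) and above it in replicates 2 and 3 (301.6 and 308.9 RPKM). The next in order, Krtap7-1 at 80.89 ± 75.28 RPKM, Krt31 at 80.78 ± 68.64 and Krtap8-1 at 72.4 ± 65.59, had SDs nearly as large as their means. In control wounds Krt25 also came first, at 75.1 ± 89.18 RPKM, followed by Krt28 at 50.29 ± 48.71 and Krt35 at 43.18 ± 38.51. Krtap7-1 stood at 0.1475 ± 0.2555 RPKM there and was 20th of the 70 genes, against 7th in hydrogel wounds. Summed per length, sheath type I exceeded sheath type II keratins by 1.69, 1.54 and 1.51 times in hydrogel libraries, against 8.13, 2.32 and 3.2 times in control libraries, where the first value rests on 31 counts. Shaft type I exceeded type II by 22.6, 7.97 and 6.73 times against 42.1, 26.2 and 68.4 times, with Krt85 left out of the type II sum.

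**Figure D3:**
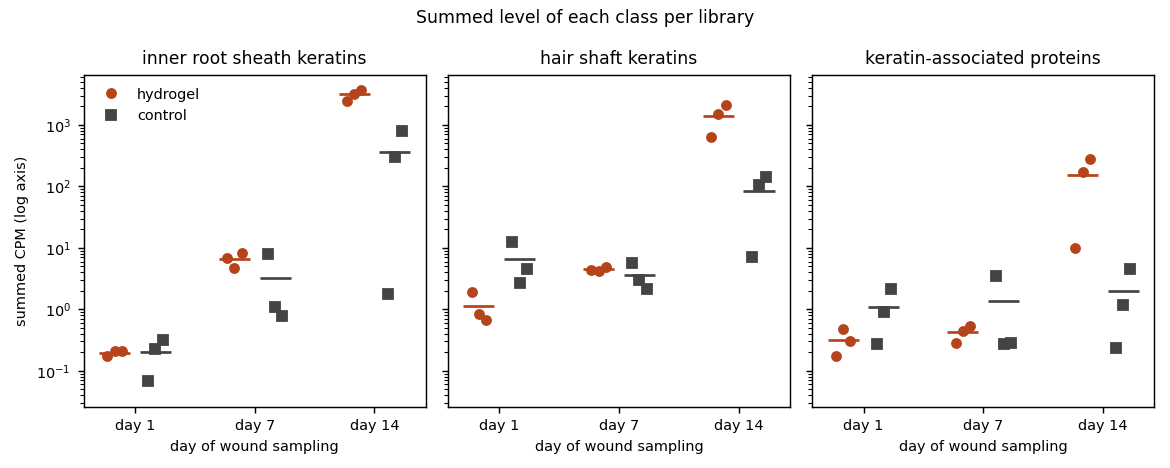
Summed CPM (log axis) of the sheath keratins, shaft keratins and keratin-associated proteins in each library by day, with hydrogel left of control and short lines at group means. At day 14 keratin-associated proteins reach 10.03, 168.8 and 280.4 CPM in hydrogel wounds against 0.2321, 1.156 and 4.489 CPM in control wounds, and control replicate 1 lies lowest of the controls at day 14 in each panel.

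The hydrogel libraries at day 14 differed from each other in class sums and medians, while single genes overlapped between most classes. Sheath keratins summed to 2442, 3207 and 3752 CPM in replicates 1 to 3, shaft keratins to 630.1, 1480 and 2089 CPM and keratin-associated proteins to 10.03, 168.8 and 280.4 CPM. Replicate 1 lay close to the others in sheath keratins and far below them in keratin-associated proteins. Among genes with more than 3 counts in replicate 1, the mean of replicates 2 and 3 over replicate 1 had a median of 1.39 in 4 sheath type I keratins, 2.77 in 4 sheath type II keratins, 14.3 in 7 shaft type I keratins, 13.9 in 4 shaft type II keratins and 41.4 in the 2 glycine-tyrosine-rich genes. In 12 other keratin-associated proteins the median was 9.73. Ratios of single genes ran from 1.02 to 2.14 in sheath type I and from 1.18 to 5.35 in sheath type II keratins. They ran from 2.04 to 25.6 in shaft type I, 2.41 to 17.4 in shaft type II and 2.31 to 22.6 in other keratin-associated proteins. Replicates 2 and 3 were alike: the median ratio of replicate 3 to replicate 2 was 1.51 over 61 genes. Replicates have no order, and this describes 3 libraries.

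**Figure D4:**
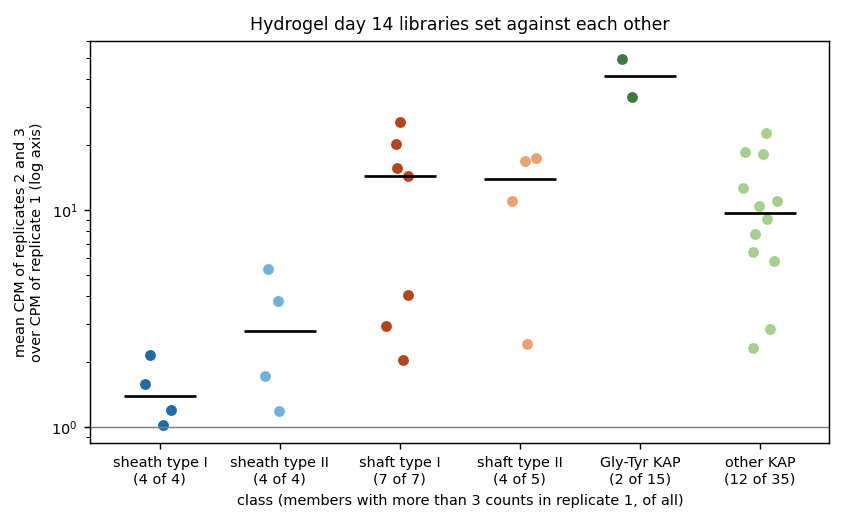
Mean CPM of hydrogel day 14 replicates 2 and 3 over that of replicate 1 (log axis) for each gene with more than 3 counts in replicate 1, by class, with the number of such genes of all members under each class and lines at medians. Sheath type I keratins lie near 1 (median 1.39) and the 2 glycine-tyrosine-rich genes at 33.1 and 49.7.

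The same split by class appeared within control wounds. Control replicates 2 and 3 at day 14 held 299.1 and 797.9 CPM of sheath keratins and 95.67 and 129.3 CPM of Krt35, but the other shaft keratins came to only 7.837 and 14.52 CPM and keratin-associated proteins to 1.156 and 4.489 CPM. Per 100 CPM of sheath keratins, keratin-associated proteins stood at 0.411, 5.26 and 7.47 CPM in hydrogel libraries, against 0.387 and 0.563 CPM in control replicates 2 and 3. On this measure hydrogel replicate 1 lay between the controls. Shaft keratins other than Krt35 stood at 2.84, 15.3 and 21.2 CPM per 100 CPM of sheath keratins in hydrogel libraries and at 2.62 and 1.82 CPM in those controls. Control replicate 1 had 31 sheath keratin counts in all, too few for such a ratio. Basal keratinocyte genes were low there too. Krt14 and 9 others summed to 4812 to 5714 CPM in hydrogel libraries, against 853 CPM in control replicate 1 and 4364 and 5816 CPM in the other 2 controls. Suprabasal epidermis genes were not lower there than in replicate 2: they summed to 569.3 to 733.6 CPM in hydrogel libraries, against 346.4, 338.3 and 629.9 CPM in control replicates 1 to 3. The part of that library's make-up in the result was not tested. Without it 21 of 54 hair genes tested were called.

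At day 1, 1 of 25 genes fell in hydrogel wounds and 0 rose, where 3.02% of all genes fell. The gene was Krt36. It had 1 count in each hydrogel library, against 170, 13 and 1 counts in control libraries, which is 11.55, 0.9856 and 0.06337 CPM (log2 fold change -5.97 ± 1.48, adjusted p = 0.0274). Control replicate 1 carried nearly all of it, and without that library 0 genes were called, as also without hydrogel day 1 replicate 2 or 3. Krt32 and Krtap3-2 were the other hair genes with counts in all 6 libraries of day 1. Krt32 stood at 1.547, 0.3156 and 0.3623 CPM in hydrogel wounds and at 0.5436, 1.289 and 3.865 CPM in control wounds. Krtap3-2 had 1, 8 and 2 counts against 2, 12 and 29. Both overlapped between arms. Of the 70 genes, 55 had no count in any hydrogel library at day 1 and 54 had none in any control library.

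At day 7, 0 of 25 genes passed in edgeR and 3 had an unadjusted p below 0.05, while 21.6% of all genes passed. Each of DESeq2, limma-voom and edgeR on the 6 libraries of that day called 3. The 3 genes with an unadjusted p below 0.05 were Krt28, Krt32 and Krt36. Krt28 stood at 3.661, 2.576 and 4.743 CPM in hydrogel wounds and at 0.4462, 0.2032 and 0.1396 CPM in control wounds (log2 fold change 3.78 ± 1.44, adjusted p = 0.0716). Krt32 stood at 2.154, 2.296 and 2.004 CPM against 0.5206, 0.2032 and 0.2793 CPM (2.67 ± 0.98, adjusted p = 0.0613). Krt36 ran the other way, at 0.1436, 0.112 and 0.06681 CPM against 1.19, 1.964 and 1.117 CPM (-3.65 ± 1.42, adjusted p = 0.0756). In these 3 genes the arms did not overlap. Over the 70 genes, every hydrogel library lay above every control library in 4 and below in 3. The others were Krt35 (59 counts against 6) and Krtap6-2 (4 against 0), higher, and Krt33b (1 against 18) and Krt34 (1 against 11), lower. The share of all genes without overlap was not taken at this day. The call came and went with libraries of other days: 1 to 3 hair genes passed, Krt32 each time, without control day 1 replicate 1 or 3, control day 14 replicate 1 or 3, or hydrogel day 1 replicate 1.

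One control library at day 7 differed from its group in hair genes. Control day 7 replicate 1 had 231 hair gene counts over 41 of the 70 genes, against 64 and 46 counts over 18 and 13 genes in replicates 2 and 3, although these 3 libraries were otherwise close to sampling noise. Its counts were spread over sheath, shaft and associated protein genes alike: 26 of Krt25 against 2 and 0, 39 of Krt71 against 5 and 7, and 47 over keratin-associated proteins against 4 and 4. Hydrogel libraries at day 7 held 159, 165 and 207 hair gene counts over 14 to 20 genes, of which only 4, 8 and 8 were of keratin-associated proteins. The cause was not tested.

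Within hydrogel wounds, all 25 tested genes rose at day 14 against day 7, where 11.7% of all genes rose. For the 16 genes that entered only through hydrogel day 14 libraries this direction was fixed in part by the filter. The 9 that pass the filter without those libraries rose too, by 3.71 ± 0.86 in Krt32 to 10.61 ± 1.63 in Krt25 on the log2 scale. Without hydrogel day 14 replicate 2 or 3 the count was 22. Without hydrogel day 14 replicate 1 it was 54 of 54, and without any one of the 9 control libraries or of the 3 hydrogel libraries of day 1 it was 41 to 48 of 54. The genes added there come from the 45 otherwise untested. Those held 84, 1630 and 2374 counts in hydrogel libraries at day 14 and 13 in all at day 7. Their direction was thus fixed in part too, and these larger counts add no support. Where the 3 libraries of each day 7 group were added together the count was 0 of 59, in a model that called 0 of all genes in this comparison. At day 7 against day 1 only Krt28 rose in hydrogel wounds (5.12 ± 1.62, adjusted p = 0.04), where 7.76% of all genes rose. It had 51, 46 and 71 counts at day 7 and 0, 3 and 2 at day 1. That call was lost without any one of 12 libraries, the 6 of day 7 among them, and 5 genes passed without control day 14 replicate 1.

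Within control wounds, 7 of 25 genes rose at day 14 against day 7, where 6.33% of all genes rose. They were the 4 sheath type I keratins, Krt71, Krt73 and Krt35, while the sheath keratins Krt72 and Krt74 (adjusted p = 0.238 and 0.24), 6 other type I shaft keratins, 4 type II shaft keratins and 6 keratin-associated proteins did not pass. The classes were not tested against each other. On the log2 scale Krt25 rose by 7.73 ± 1.48 and Krt35 by 8.99 ± 1.66 (adjusted p = 0.00539 and 0.00562). The rise lay in control replicates 2 and 3 of day 14. Krt25 stood at 1.567, 97 and 334.3 CPM at day 14 and at 1.934, 0.1355 and 0 CPM at day 7. Of the 7, only Krt35 did not overlap between the days, with its lowest day 14 library at 0.2321 CPM and its highest day 7 library at 0.2231 CPM. The count was 3 without control day 7 replicate 2 or 3. At day 7 against day 1, 1 gene fell in control wounds, Krtap3-2 (-4.18 ± 1.22, adjusted p = 0.018), where 16.6% of all genes fell. It had 1, 1 and 0 counts at day 7 and 2, 12 and 29 at day 1. That count was 0 without control day 1 replicate 3 or any control library of day 7, 2 to 3 without control day 1 replicate 1, control day 14 replicate 3 or hydrogel replicate 1 of day 1 or 14, and 5 without control day 14 replicate 1. The contrasts of day 14 against day 7 and of hydrogel against control share libraries.

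Averaged over the 3 days, 1 gene was higher with hydrogel and 1 lower, where 31.8% of all genes passed. Krt32 had an average log2 fold change of 1.7 ± 0.52 (adjusted p = 0.0231) and Krt36 of -2.36 ± 0.77 (adjusted p = 0.0305). The count was 1 without control day 1 replicate 1, control day 7 replicate 2, any hydrogel library of day 1 or any of day 7. The difference between arms itself differed between days in 9 of 25 genes, where 15.8% of all genes passed that test of interaction. These were Krt31, Krt32, Krt33a, Krt33b, Krt34, Krt36, Krt81, Krtap3-2 and Krtap7-1. In the 7 with counts at day 1 the estimated difference at day 14 exceeded that at day 1. For Krt33a, Krt81 and Krtap7-1 both arms lay at or under the floor of 3 counts at day 1. Their difference at that day is thus not measured. Of these 9, only Krt32 and Krt36 pass the filter without the hydrogel libraries of day 14. For the others a high level there was fixed in part by how they entered. In Krt31 the log2 fold change was -2.2 ± 2.12 at day 1, 0.63 ± 1.54 at day 7 and 6.87 ± 1.1 at day 14 (interaction adjusted p = 0.0192). Of the 8 sheath keratins 0 passed the interaction. The count was 3 to 5 without control day 1 replicate 3, control day 7 replicate 1, control day 14 replicate 2, hydrogel day 1 replicate 3, hydrogel day 14 replicate 2 or 3, or any hydrogel library of day 7.

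Other genes of the shaft and sheath moved with the keratins at day 14. Of 15 genes listed as their partners, 13 were tested, 9 rose and 0 fell, where 5.83% of all genes rose. Their median log2 fold change was 2.97, against 0.0287 over all genes. Of the 13, 3 entered only through hydrogel day 14 libraries, and of the other 10, 6 rose. Tgm3, the transglutaminase that cross-links sheath and shaft proteins, stood at 12.79, 32.91 and 49.93 CPM in hydrogel wounds, against 2.901, 2.013 and 4.489 CPM in control wounds (3.34 ± 0.45, adjusted p = 0.000955). Gprc5d, an orphan receptor of shaft-forming cells, stood at 4.302, 41.14 and 65.36 CPM against 0.116, 0.1285 and 0.458 CPM (7.24 ± 1, adjusted p = 0.00138). Vsig8 rose by 4.83 ± 0.69 and Mt4, a metallothionein of differentiating epithelia, by 3.46 ± 0.60 on the log2 scale. S100a3, a calcium-binding protein of the shaft cuticle, Dsg4, a desmosomal cadherin of the shaft, the peptidylarginine deiminase genes Padi1 and Padi3, and Crym also rose. At day 7, 1 of the 13 rose, where 9.86% of all genes did. It was the desmosomal gene Dsc2, at 3.4 ± 0.74 (adjusted p = 0.00648).

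**Figure D5:**
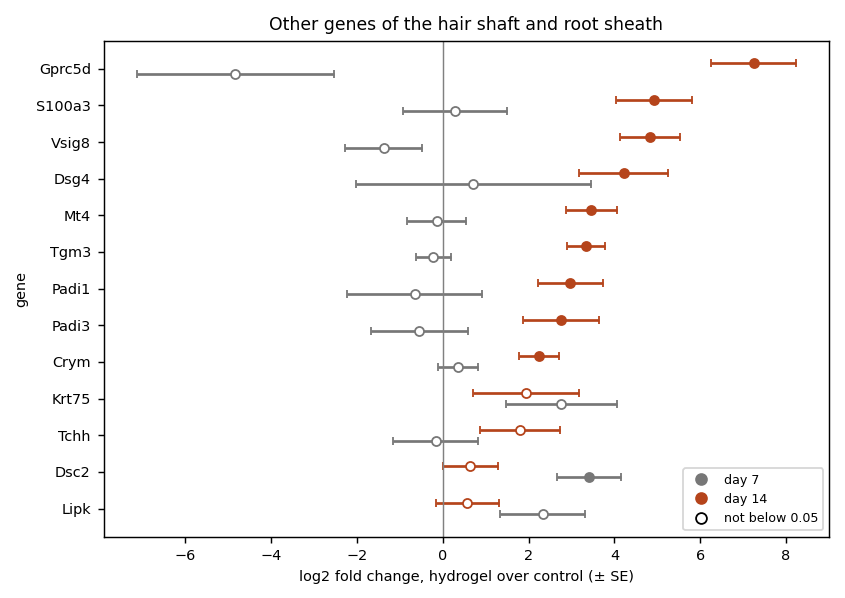
Log2 fold change of hydrogel over control wounds (horizontal axis, bars are standard errors) at days 7 and 14 for the 13 tested partner genes of the shaft and sheath; filled points passed an adjusted p of 0.05. At day 14, 9 points are filled and lie between 2.24 and 7.24, while at day 7 only Dsc2 is filled.

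Regulators of the hair matrix and cortex differed at day 7, where 0 hair keratin genes passed. Of 20 tested, 9 rose at day 7, where 9.86% of all genes rose, and 4 at day 14, where 5.83% did, and 0 fell at either day. At day 7 Foxq1, a forkhead factor needed for the shaft medulla, stood at 11.34, 15.96 and 10.09 CPM in hydrogel wounds, against 0.2231, 0.271 and 0.1396 CPM in control wounds (5.84 ± 1, adjusted p = 0.00243). Gata3, a factor of the inner root sheath, stood at 95.12, 118.2 and 78.43 CPM against 5.652, 5.419 and 5.097 CPM. Edar, a receptor of follicle placodes, and Hr, the hairless co-repressor, rose by 5.67 ± 1.15 and 3.07 ± 0.62. At day 14 the 4 were Cux1, Foxn1, Edar and Msx2. Foxn1, the nude gene, which is needed for cortex keratin expression in mice, stood at 18.35, 30.69 and 39.84 CPM in hydrogel wounds, against 0.116, 3.854 and 8.016 CPM in control wounds (2.88 ± 0.81, adjusted p = 0.0257). At day 7 Foxn1 stood at 2.584, 2.408 and 2.138 CPM against 0.2231, 0 and 0 CPM. Several of these genes are also expressed in the epidermis between follicles.

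Markers of other cell types moved at both days, and their part in the hair gene result was not tested. Of all genes, 11.7% fell at day 7 and 10.3% at day 14, beside the shares that rose. At day 7, 7 of 10 basal epidermis, 6 of 9 suprabasal epidermis, 7 of 9 sebaceous gland, 7 of 10 melanocyte and 5 of 12 outer root sheath genes rose, where 9.86% of all genes did. Of 10 dermal papilla genes, Wif1, Hhip and Notum rose and Sox18 fell at that day. At day 14, 0 of those basal, suprabasal and sebaceous genes passed, 2 of 10 melanocyte genes rose (Kit and Slc45a2) and 2 of 12 outer root sheath genes fell (Cd34, which endothelial cells and fibroblasts also express, and Fgf18). Basal epidermis genes summed to 4812 to 5714 CPM in hydrogel libraries at day 14, against 853 to 5816 CPM in control libraries, so these overlapped where hair genes did not. Suprabasal sums overlapped too. Several other lists did not overlap either. Sebaceous gland genes summed to 3134 to 4625 CPM against 111.4 to 2996 CPM, and outer root sheath genes to 2339 to 2640 CPM against 1029 to 2052 CPM. Matrix and cortex regulators summed to 1829 to 2406 CPM against 161.5 to 1358 CPM. Melanocyte genes summed to 1286 to 1651 CPM against 84.13 to 563.1 CPM, and dermal papilla genes, of which 0 of 10 passed, to 395.3 to 438.6 CPM against 87.84 to 324.2 CPM. Macrophage genes fell in 10 of 10 cases at day 14 (86.46 to 121 CPM against 562.3 to 4910 CPM) and fibroblast genes in 9 of 10 (2292 to 2895 CPM against 11674 to 49625 CPM). Endothelial genes fell in 5 of 10. Skeletal muscle had 0 of 10 past the test at day 14, and of 10 adipocyte genes 1 rose.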

How the data were processed

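The authors deposited raw counts of read pairs per gene symbol for each library. The submitters' processing notes name Trim Galore 0.6.10 and FastQC 0.11.9 for read trimming and quality, HISAT2 2.2.1 and SAMtools 1.9 for alignment, and featureCounts 2.0.6 for counting, on mm10. Per the file headers, exons were summed by gene name (GENCODE M25), without strand, and pairs mapped to several places or genes were left out. Antisense and overlapping transcripts cannot be told apart from sense ones.

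From these counts, edgeR 4.0.16 (R 4.3.3) kept 17592 genes with filterByExpr (minimum count 10, minimum total 15), scaled by TMM and fitted a robust quasi-likelihood model to 18 wound libraries and 6 group means (12 residual degrees of freedom), with Benjamini-Hochberg adjustment over all genes. Rose and fell are used at an adjusted p below 0.05. Exon lengths for RPKM came from the files. The members and gene lists were chosen with earlier results of these data known, and the split of keratin-associated proteins into classes was made after values were seen. Named genes were the 2 members with the highest RPKM of each keratin class or Krtap family above 0.5 RPKM in some group, up to 6 members by adjusted p in each comparison at a day, and up to 4 genes of each list at days 7 and 14, given only in part; others were named after their values were seen. Folds against a group with 0 counts use a floor of 3 counts over the group. Alternatives were RLE factors, no filter, a stricter filter (1 CPM in 3 libraries), DESeq2 1.42.0, limma-voom (limma 3.58.1), fewer groups, a replicate block, summed day 7 libraries, each library left out, and 2 pairs of libraries left out, chosen after the data were seen. The tests were tried on simulated counts.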

Additional observations from a re-analysis of the deposited data

Results flagged for a closer look

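In 9 of the 25 tested hair genes the difference between hydrogel and control wounds differed between days by the interaction test of edgeR. Of all genes tested, 15.8% passed that test. The adjusted p was 0.0111 for Krt36, 0.0192 for Krt31, 0.0195 for Krt33b, 0.021 for Krt32, 0.0262 for Krtap3-2, 0.0265 for Krt34, 0.0362 for Krt33a, 0.0385 for Krt81 and 0.048 for Krtap7-1. Krt36 changed direction in its estimates. Its log2 fold change was -5.97 ± 1.48 at day 1, -3.65 ± 1.42 at day 7 and 2.55 ± 1.01 at day 14. Only that at day 1 passed, and it rested mainly on 1 control library, with 170, 13 and 1 counts in control replicates 1 to 3. Krt33b and Krt34 had no count in either arm at day 1, and Krt33a, Krt81 and Krtap7-1 had at most 3 counts per arm. Of the 9 genes, all but Krt32 and Krt36 reached the filter only through the hydrogel libraries of day 14. For those a high level at that day was fixed in part by how they entered. Over 27 alternatives, 26 for Krt34, the interaction passed in 25 for Krt36, 23 for Krt32, 22 each for Krt31 and Krt33b, 21 for Krtap3-2, 17 for Krt34, 13 for Krt81, 12 for Krt33a and 7 for Krtap7-1.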

How the results depend on the processing

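At day 14 the 15 hair genes called became 30 with no filter on low counts, 8 with the day 7 libraries summed, 40 without the day 14 libraries numbered 1 in both arms, 34 without the control libraries numbered 1 at days 1 and 14, and 0 with only the day 14 libraries in the model. RLE factors and the replicate block gave 15 and 18, which include all 15, and the stricter filter and DESeq2 gave 13 each, all among the 15. Limma-voom gave 12, of which 5 are among the 15 and 7 are sheath keratins. At day 1 the 1 gene called became 0 with no filter, limma-voom, only the compared groups, or summed day 7 libraries. At day 7 the count of 0 became 3 with DESeq2, limma-voom or only the compared groups, and 4 and 4 with the 2 pairs of libraries left out. The average over days (2 genes) gave 0 with no filter, limma-voom or summed libraries and 5 with DESeq2. The interaction (9 genes) gave 3 with no filter, 2 with limma-voom, 0 with summed libraries and 15 without the day 14 libraries numbered 1. The share of all genes called is not given beside these counts or those below.

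Day 7 against day 1 in hydrogel wounds (1 gene) gave 0 with no filter, limma-voom or summed libraries, 4 with DESeq2, 2 with only the compared groups, and 5 and 5 with the pairs left out. In control wounds (1 gene) it gave 6 with DESeq2, 2 with limma-voom, 0 with only the compared groups or summed libraries, and 6 and 3 with the pairs left out. Day 14 against day 7 in hydrogel wounds (25 genes) gave 42 with no filter, 0 with summed libraries, and 54 and 52 with the pairs left out. In control wounds (7 genes) it gave 4 with no filter, 0 with only the compared groups or summed libraries, and 11 without the control libraries numbered 1. The filter admits 54 hair genes where 1 library is left out, except 25 without hydrogel day 14 replicate 2 or 3, and 68 were tested with no filter, so counts are over other sets of genes there; other causes were not tested. The genes added where a library is left out had most of their counts in hydrogel libraries of day 14. Their direction at that day was fixed in part by how they entered.

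Leaving out each library in turn gave 0 to 1 at day 1, 0 to 3 at day 7, 10 to 42 at day 14, 1 to 3 for the average, 3 to 12 for the interaction, 0 to 5 and 22 to 54 for day 7 and day 14 in hydrogel wounds, and 0 to 5 and 3 to 9 in control wounds. In the 39 gene results that were recomputed (25 at day 14 and 14 others), no fold change changed direction. With the replicate number as a block, 18 genes were called at day 14 and 1 for the average. Libraries with the same number correlated at -0.018 to 0.374. With 3 libraries per group these values cannot settle whether the numbers pair them. Depth limits the keratin-associated proteins most: outside day 14 few had more than 3 counts in a group.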
